A study of Mus musculus with 2 samples.

Results

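Of the 2296 peaks in the list of RNA regions pulled down with Mov10 from mouse brain, 9 lay over mitochondrial sequence, 4 on the mitochondrial genome itself and 5 on a stretch of chromosome 1 that is a copy of it. The list analysed here is shorter than the number of peaks the study states, and the other peaks were not analysed here. The 9 were chosen by their place, as every peak on the mitochondrial genome and every peak within a window of chromosome 1, whatever their adjusted p. The read counts of these peaks were known when the window was set, so the counts, the ratios and the authors' p-values below are a description. The RNA came from brains of 28 wild-type C57bl/6 pups at P2, pooled. One library was made from RNA immunoprecipitated (IP) with an antibody to Mov10 and 1 from the total input RNA, with no replicate of either. Both groups are therefore the same strain, age and tissue, and differ by the IP procedure. In the methods of the study, the lysate first went through an IP with an unrelated antibody. The IPs were then treated with DNAse and washed in high salt. No UV cross-linking was used on the brains for sequencing. A peak is a region where the peak caller RIPSeeker found reads of the IP piled up on 1 strand, and each peak carries the authors' count of reads in the IP and in the input.

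Mov10 is an RNA helicase found in the cytoplasm and, in the young brain, also in the nucleus. Mitochondria carry a small circular genome that encodes the ribosomal RNAs and transfer RNAs of their own ribosomes and a set of subunits of the respiratory chain and of ATP synthase. Each strand of it is transcribed into a long precursor that is cut into the separate RNAs, and these RNAs normally stay inside the organelle. Pieces of mitochondrial DNA have also been inserted into the nuclear chromosomes during evolution, and a read from such a piece can match both places equally well.

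The 4 mitochondrial peaks covered 800 bases, and each lay wholly inside 1 gene. The first lay over bases 332 to 531 of the 955 bases of mt-Rnr1, the ribosomal RNA of the small mitochondrial subunit. The second lay over bases 708 to 907 of the 1582 bases of mt-Rnr2, the ribosomal RNA of the large subunit. The third lay over bases 389 to 588 of the 684 bases of mt-Co2, which encodes subunit 2 of cytochrome c oxidase, the last complex of the respiratory chain. The fourth lay over bases 275 to 474 of the 681 bases of mt-Atp6, a membrane subunit of ATP synthase. All are exonic, since mitochondrial genes have no introns. Their sequences are shown because the reads over mt-Co2 and mt-Atp6 also match chromosome 1 and those over the ribosomal RNAs have no such partner among the annotated copies. The fifth sequence is the 1 peak on chromosome 1 that differs from the mitochondrial genome by a base, close to the end of the match. All are written 5′ to 3′ on the strand of the gene, from GENCODE M21 transcripts on mm10 (GRCm38), with a base that differs from the mitochondrial one in capitals.
mt-Rnr1, chrM:401-600, plus strand: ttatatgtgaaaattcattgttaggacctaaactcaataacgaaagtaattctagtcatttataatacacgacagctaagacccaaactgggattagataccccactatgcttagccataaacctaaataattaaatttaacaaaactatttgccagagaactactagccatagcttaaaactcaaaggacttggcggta
mt-Rnr2, chrM:1801-2000, plus strand: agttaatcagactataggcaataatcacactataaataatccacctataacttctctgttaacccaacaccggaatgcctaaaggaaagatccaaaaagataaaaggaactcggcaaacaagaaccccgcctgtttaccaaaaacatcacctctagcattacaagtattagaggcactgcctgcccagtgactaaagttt
mt-Co2, chrM:7401-7600, plus strand: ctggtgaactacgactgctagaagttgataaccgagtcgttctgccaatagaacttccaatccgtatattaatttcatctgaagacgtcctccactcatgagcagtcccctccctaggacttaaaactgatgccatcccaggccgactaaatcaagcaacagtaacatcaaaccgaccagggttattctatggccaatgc
mt-Atp6, chrM:8201-8400, plus strand: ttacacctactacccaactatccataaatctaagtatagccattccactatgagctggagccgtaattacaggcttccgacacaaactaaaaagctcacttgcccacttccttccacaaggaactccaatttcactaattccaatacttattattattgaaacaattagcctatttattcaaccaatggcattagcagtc
mt-Co1 copy, chr1:24616001-24616188, minus strand: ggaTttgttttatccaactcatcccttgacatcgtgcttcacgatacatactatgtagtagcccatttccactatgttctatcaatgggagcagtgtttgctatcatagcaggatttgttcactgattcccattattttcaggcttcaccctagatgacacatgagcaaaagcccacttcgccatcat

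The 5 peaks on chromosome 1 covered 1200 bases between 24612401 and 24616200, on the minus strand. Each overlapped a pseudogene in GENCODE that matches a mitochondrial mRNA. The peak at 24616001 to 24616200 lay over Gm29216, and 188 of its bases aligned to bases 6390 to 6577 of the mitochondrial genome within mt-Co1, the catalytic subunit 1 of cytochrome c oxidase. It differed there by a single substitution, A6393T. The position is counted from 1 in the mitochondrial reference, with the mitochondrial base first. The substitution lies close to the end of the match at base 6390, so reads elsewhere in the match cannot be told apart by it. The rest of this peak reaches past the end of the mitochondrial match, where an L1_Mm repeat is annotated. The peak at 24615001 to 24615400 lay over Gm28661, a copy of mt-Co2. The peak at 24614201 to 24614400 lay over Gm10925, a copy of mt-Atp6. The peak at 24613601 to 24613800 lay over Gm28437, a copy of mt-Co3, subunit 3 of cytochrome c oxidase. The peak at 24612401 to 24612600 lay over Gm10222, a copy of mt-Nd4l, a subunit of NADH dehydrogenase (complex I), with its last 10 mitochondrial bases in mt-Nd4. These last 4 peaks were identical to the mitochondrial genome over their whole length, so no read within them can be assigned to 1 of the 2 places by its sequence.

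**Figure D1:**
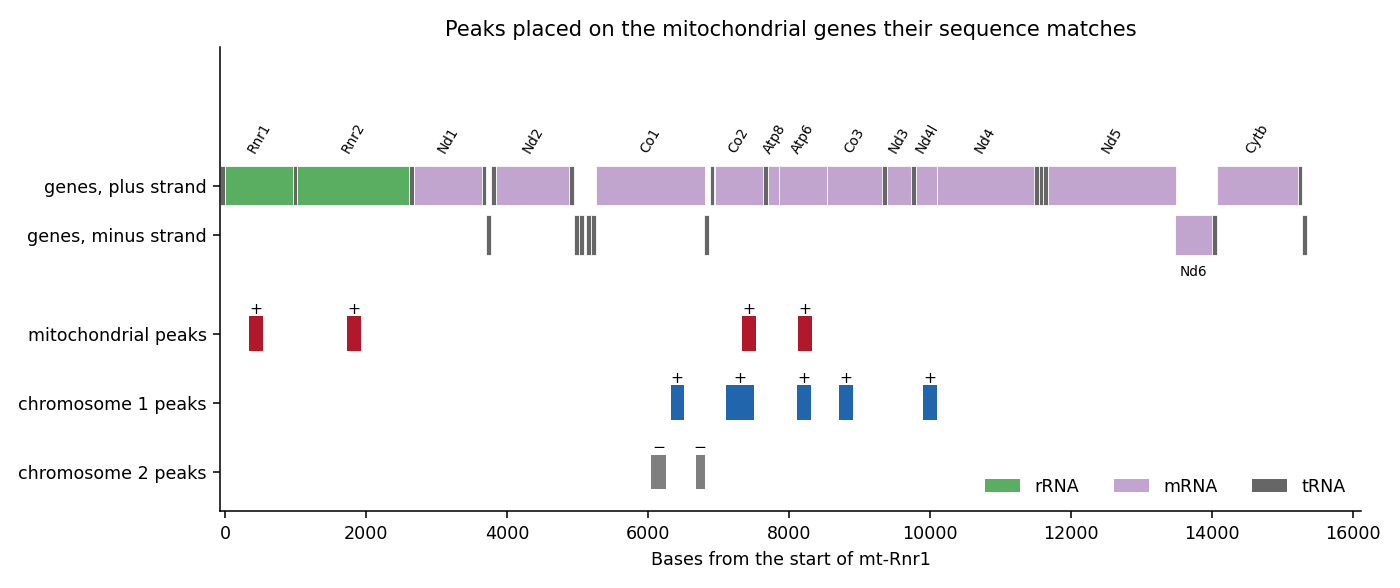
Map of the mitochondrial genes (upper rows, by strand) with the peaks placed where their sequence matches, in bases from the start of mt-Rnr1. Red bars are the 4 mitochondrial peaks, blue bars the 5 peaks of chromosome 1 and grey bars the 2 peaks of chromosome 2; the sign above a bar is the strand of the peak when laid on the mitochondrial genome.

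Across the annotated pseudogenes of the chromosome 1 stretch, from 24611535 to 24616197, 4136 bases were compared with the mitochondrial genome and 2 differed, A6393T and T9461C. The stretch holds 7 such pseudogenes, and 6 of them overlapped 1 of the 5 peaks. Gm28439, the copy of mt-Nd4, did so only by 10 bases of the peak over Gm10222. The pseudogene without a peak was Gm28438, the copy of mt-Nd3, another complex I subunit. In all of the GENCODE annotation, 11 pseudogenes matched the mitochondrial genome with an identity of 95% or higher across 100 bases or longer, and 7 had a peak. None of the 11 matched mt-Rnr1 or mt-Rnr2. The 4 without a peak were Gm28438 on chromosome 1, Gm13339 and Gm13341 on chromosome 2 and Gm4076 on chromosome 13. Of the 37 mitochondrial genes, 4 lay under a mitochondrial peak, namely 2 of 2 ribosomal RNAs, 2 of 13 mRNAs and 0 of 22 transfer RNAs. With the chromosome 1 peaks laid on the mitochondrial genome, 6 of the 13 mRNAs were covered, mt-Co1, mt-Co2, mt-Atp6, mt-Co3, mt-Nd4l and, by 10 bases, mt-Nd4.

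The IP read counts over the 4 mitochondrial peaks were nearly equal, whereas the input counts were not. The peak on mt-Rnr1 held 5338 reads in the IP and 3919 in the input. The peak on mt-Rnr2 held 5484 and 904 reads. These peaks are all 200 bases long, so their counts can be set side by side. The peak on mt-Co2 held 5444 reads in the IP and 327 in the input. The peak on mt-Atp6 held 5335 and 384. The highest IP count was 1.03 times the lowest, and the 95% Poisson intervals of the 4 IP counts overlap, from 5193 to 5480 for mt-Atp6 up to 5340 to 5631 for mt-Rnr2. In the input the highest count was 11.98 times the lowest. The order there was mt-Rnr1, mt-Rnr2, mt-Atp6 and mt-Co2, and the intervals of mt-Atp6 (347 to 424) and mt-Co2 (293 to 364) overlap. The peaks over the 2 ribosomal RNA genes thus had the most input reads of the 4, and none of the 4 stood out in the IP. Both statements hold for reads as the caller assigned them. Reads over mt-Co2 and mt-Atp6 also match chromosome 1, unlike those over the ribosomal RNAs. Of the IP reads of each mitochondrial peak and its chromosome 1 partner, the mitochondrial peak held 34.5% for mt-Co2 and 56.1% for mt-Atp6. Here and below, mRNA and ribosomal RNA name the gene under a peak, not the strand of its reads.

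A narrow range of IP levels was not limited to the mitochondrial genome. On the 30 chromosome strands with at least 4 peaks, the highest IP level per 1000 bases was a median of 1.501 times the lowest. The range ran from 1.03, the value of the mitochondrial plus strand, to 1.90 on the plus strand of chromosome Y. The mitochondrial peaks numbered 4, while 139 peaks lay on the strand with the most.

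**Figure D2:**
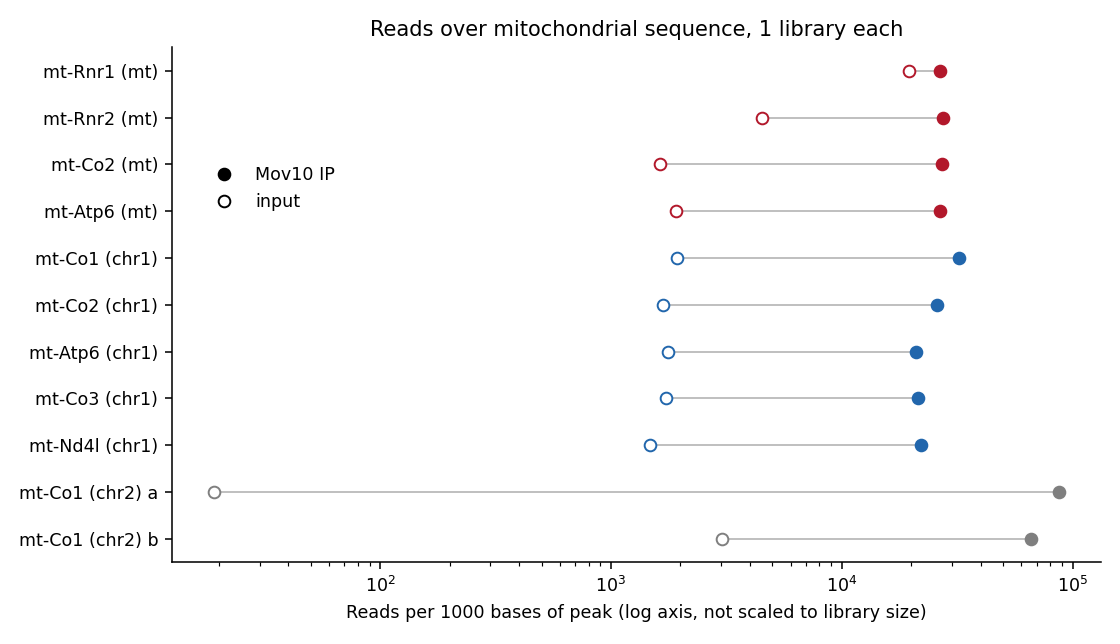
Reads per 1000 bases of peak (log axis, not scaled to library size) in the Mov10 IP (filled) and the input (open) for the 4 mitochondrial peaks (red), the 5 peaks of chromosome 1 (blue) and the 2 of chromosome 2 (grey), 1 library each. The filled points of the 9 red and blue rows lie between 20895 and 32090, while the open points of mt-Rnr1 and mt-Rnr2 lie to the right of the other open ones in those rows, at 19595 and 4520.

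Divided by the aligned reads of each library, the IP over the input gives an enrichment ratio. Its 95% interval is an exact conditional binomial one. It takes in the error of counting alone, sets 1 library against the other rather than conditions, and treats PCR reads as if they were independent molecules, which they are not. The pooled brain holds many cell types, and fewer cells of a type and less RNA per cell cannot be told apart. The ratio was 1.135 (1.09 to 1.18) for mt-Rnr1, the lowest of the 9. It was 5.06 (4.71 to 5.43) for mt-Rnr2. It was 13.9 (12.4 to 15.6) for mt-Co2 and 11.6 (10.4 to 12.9) for mt-Atp6. The direction of mt-Rnr1 depended on the library total used, since its ratio was 0.696 by uniquely aligned reads, 0.931 by all sequenced reads and 0.539 by reads within peaks. The other 8 ratios stayed above 1 under each of these totals. Reads within peaks are a total that 1 peak sets, that over Rn7sk, and without it mt-Rnr2 also fell below 1, to 0.659, with mt-Rnr1 at 0.148 and the other 7 between 1.285 and 1.81.

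Ratios between genes of the same libraries need no library total. The IP over input of mt-Rnr2 was 4.45 (4.10 to 4.84) times that of mt-Rnr1. That of mt-Co2 was 12.2 (10.8 to 13.8) times, and that of mt-Atp6 10.2 (9.12 to 11.4) times, that of mt-Rnr1. Both mRNA peaks also stood above mt-Rnr2, by 2.74 (2.40 to 3.14) for mt-Co2 and 2.29 (2.02 to 2.60) for mt-Atp6. The mRNA peaks lay close to each other, mt-Co2 over mt-Atp6 giving 1.20 (1.03 to 1.40). The order mt-Co2, mt-Atp6, mt-Rnr2, mt-Rnr1 is thus separated at each step beyond counting error in these libraries. With reads as the caller assigned them, it is set by the input counts, the IP counts being nearly equal. Summed with the chromosome 1 peaks, which also cover other bases, mt-Co2 had 15789 IP and 996 input reads. For mt-Atp6 the sums were 9514 and 737, so the IP counts were then not equal to the 5338 of mt-Rnr1 and 5484 of mt-Rnr2. Peaks were called by their pile-up of IP reads, so this order is not a ranking of Mov10 binding. The spread between animals or preparations was not measured.

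The 5 peaks of the chromosome 1 copy had levels like the mitochondrial mRNA peaks. The mt-Co1 copy held 6418 IP reads and 388 input reads, a ratio of 13.8 (12.4 to 15.3). The mt-Co2 copy, over 400 bases, held 10345 and 669 reads, a ratio of 12.9 (11.9 to 13.96). The mt-Atp6 copy held 4179 and 353 reads, a ratio of 9.87 (8.85 to 11.03). Per 1000 bases these 3 peaks had 32090, 25863 and 20895 IP reads. The mt-Co3 copy held 4271 and 347 reads, a ratio of 10.3 (9.19 to 11.5). The mt-Nd4l copy held 4407 and 295 reads, a ratio of 12.5 (11.1 to 14.1). The 5 ratios ran from 9.87 to 13.8 and each lay above those of both ribosomal RNAs, whose intervals they do not touch.

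**Figure D3:**
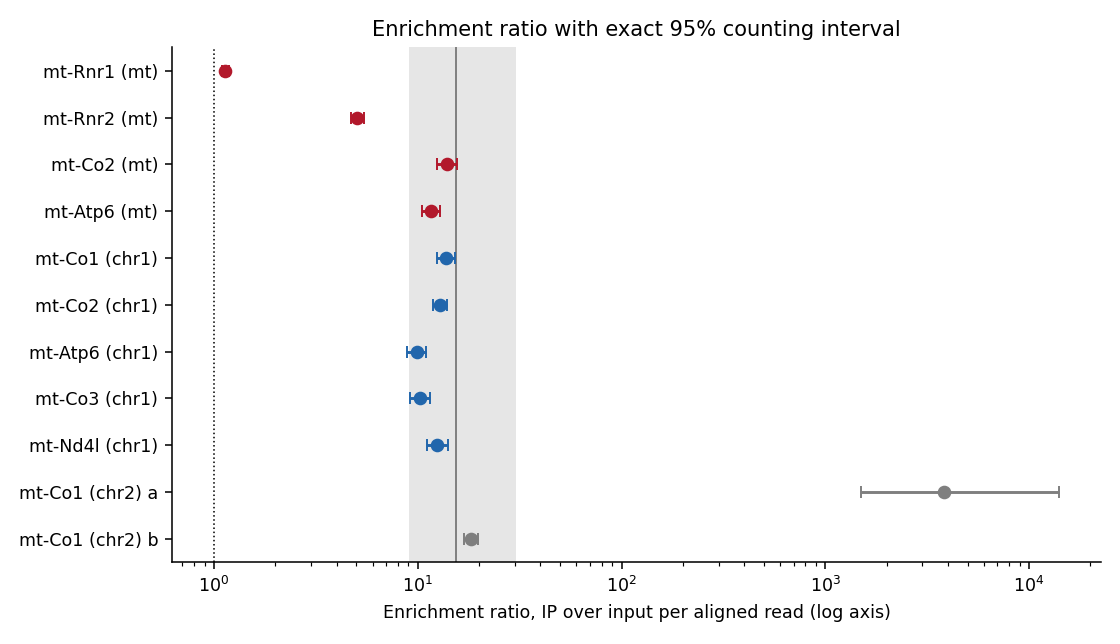
Enrichment ratio of the IP over the input per aligned read (log axis) with exact 95% counting intervals, for the mitochondrial peaks (red), the chromosome 1 copy (blue) and the chromosome 2 copy (grey). The dotted line is a ratio of 1, the solid line and the band are the median (15.5) and the quartiles (9.14 and 29.9) of the 871 other peaks on assembled chromosomes; mt-Rnr1 and mt-Rnr2 lie left of the band and the other 7 red and blue points lie within it.

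Where a mitochondrial peak and a chromosome 1 peak shared bases, the ratios of the whole peaks could be set against each other. The peaks shared 177 bases in mt-Co2, from 7401 to 7577 of the mitochondrial genome, and 177 in mt-Atp6, from 8201 to 8377. Reads within the shared bases alone were not counted. For mt-Co2 the chromosome 1 ratio was 0.929 (0.808 to 1.07) times the mitochondrial one, an interval that holds 1. For mt-Atp6 it was 0.852 (0.731 to 0.993) times. The mitochondrial peak took 34.5% of the IP reads and 32.8% of the input reads of the mt-Co2 pair, whose chromosome 1 peak is 400 bases long. In the mt-Atp6 pair of equal length it took 56.1% and 52.1%. In the methods of the study, up to 2000 alignments were kept per read and the caller then assigned each such read to 1 place. Which of the 2 places the RNA came from cannot be told apart by these counts. Summed over both places, mt-Co2 had 15789 IP reads and 996 input reads, a ratio of 13.2 (12.4 to 14.1), and mt-Atp6 had 9514 and 737, a ratio of 10.8 (9.98 to 11.6).

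A search of the other peaks found 2 more with mitochondrial sequence, both on chromosome 2 over the pseudogene Gm13340, a copy of mt-Co1 that lies in an intron of the myosin gene Myo3a. They were no part of the 9. Only 774 of the 2296 peaks held at least 30 annotated bases that could be compared, and the other 1522 were not searched. The peak at 22588021 to 22588230 held 18327 IP reads and 4 input reads, a ratio of 3819 (1491 to 14019). The 128 of its 210 bases that lie in Gm13340 aligned at 97.7% identity, and its other bases, outside the pseudogene, were not compared. The aligned part carried the substitutions G6785A, T6791C and T6833C. The peak at 22588651 to 22588860 held 13847 and 633 reads, a ratio of 18.2 (16.8 to 19.8), over 210 bases at 97.6% identity with the substitutions T6164C, T6173C, A6218G, C6231T and T6317A. The chromosome 2 copy can therefore be told from the mitochondrial genome by its bases, unlike most of the chromosome 1 copy. The part of the first chromosome 2 peak that aligned is shown beside its mitochondrial counterpart on the strand of the gene, with the bases that differ in capitals.
mt-Co1, chrM:6745-6872, plus strand: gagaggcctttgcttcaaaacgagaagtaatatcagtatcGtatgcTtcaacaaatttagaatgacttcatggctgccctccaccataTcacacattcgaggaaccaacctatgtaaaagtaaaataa
mt-Co1 copy, chr2:22588103-22588230, minus strand: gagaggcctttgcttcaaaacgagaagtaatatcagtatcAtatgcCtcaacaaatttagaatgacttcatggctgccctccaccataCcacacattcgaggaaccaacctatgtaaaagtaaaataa

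By strand, the 9 peaks differed from nearly all other peaks that could be compared. All 9 peaks lay on the same strand as the mitochondrial gene or its copy. Of 725 other chromosome peaks that overlapped exons of 1 strand only, 724 lay on the strand opposite to the gene and 1 on the same strand. The 2 peaks of chromosome 2 lay opposite to Gm13340, as the 724 did, and on the strand of Myo3a. The list analysed here held no peak on the mitochondrial minus strand and none on the plus strand of chromosome 1, against 21 on its minus strand. If the 724 peaks hold RNA of their genes, and strand is marked alike, the 9 hold RNA opposite to theirs. Which of the strands the RNA under the 9 peaks came from was not tested.

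The authors' adjusted p was at most 0.05 for 5 of the 9 peaks, all 5 on chromosome 1, where it was given as 0. It was at most 0.05 for 43.4% of all 2296 peaks and for 91.5% of the 871 other peaks on assembled chromosomes. None of the 4 mitochondrial peaks passed. Their adjusted p by RIPSeeker was 0.692 for mt-Rnr1 and 0.146 for mt-Rnr2, mt-Co2 and mt-Atp6, although the ratio of mt-Co2 was 13.9. The authors' empirical false discovery rate (eFDR) was 0.381 for each chromosome 1 peak and 0.25 to 0.692 for the mitochondrial ones, so 0 of 9 had an eFDR of at most 0.05, against 23.4% of all peaks and 43.1% of the 871 others. Both chromosome 2 peaks, which are not among the 9, had an eFDR of 0. Of the mt-Co2 and mt-Atp6 peaks that share bases, those on chromosome 1 thus passed the adjusted p and those on the mitochondrial genome did not. The caller was run strand by strand, and what set the adjusted p and the eFDR of each place was not tested. The 5 chromosome 1 peaks share a single eFDR value, so the 0 of 9 does not rest on 9 separate outcomes. A ratio of at least 2 was reached by 8 of the 9, against 76.0% of all peaks and 98.6% of the other chromosome peaks.

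The median ratio of the 9 peaks was 11.6, 8.31 for the 4 mitochondrial and 12.4 for the 5 chromosome 1 peaks, with 0.5 reads added to each count. It was 5.84 over all 2296 peaks and 15.5 (quartiles 9.14 and 29.9) over the 871 others on assembled chromosomes. The median of the 9 thus lay above the first and below the second of these, while mt-Rnr1 and mt-Rnr2 lay below both. The full list also holds the peaks on unplaced contigs, and its median IP level was 40 reads per 1000 bases. Among the 871 others, 6 had a lower ratio than mt-Rnr1 and 78 a lower one than mt-Rnr2. The mt-Co2 peak lay at the 44th percentile and the mt-Atp6 peak at the 34th. In the input, only 5 of the 871 had more reads per 1000 bases than mt-Rnr1 and 16 more than mt-Rnr2. The median over the others was 388 input reads per 1000 bases. The 9 peaks together held 2.19% of the IP reads and 0.819% of the input reads that fell in any peak. The input share rests on 1 peak over Rn7sk, a nuclear small RNA named after its values were seen, which held 72.8% of the input reads in peaks. Without it the shares were 2.21% of the IP and 3.01% of the input, and their order turned.

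**Figure D4:**
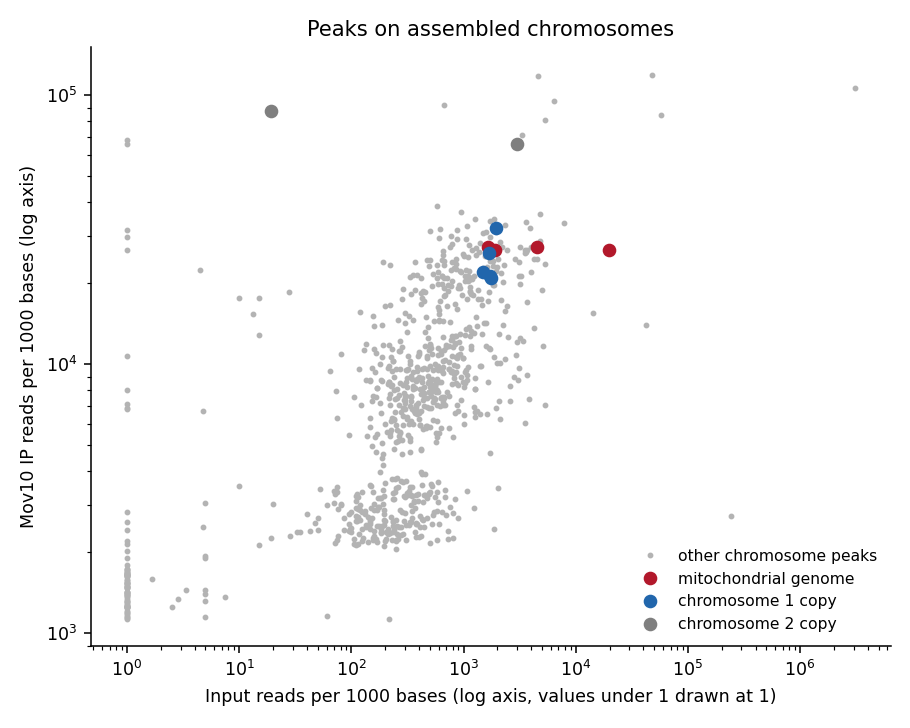
IP against input reads per 1000 bases for the 882 peaks on assembled chromosomes (both axes log, input under 1 drawn at 1): small grey points are the others, red the mitochondrial peaks, blue the chromosome 1 copy and large grey the chromosome 2 copy. The red and blue points lie in a narrow band of IP levels and spread in input, with mt-Rnr1 farthest right at 19595.

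Beside mt-Rnr1 and mt-Rnr2 can be set Rn45s, the precursor of the ribosomal RNAs of the cytoplasm, not the mature RNAs themselves. Which part of the precursor its peak covers was not examined. Its peak on chromosome 17 (39845801 to 39846000) held 2798 IP reads and 8507 input reads, a ratio of 0.274 (0.263 to 0.286). The Rn45s peak was called on the minus strand, and its orientation to the gene was not compared with that of the mitochondrial peaks, which lie on the gene strand. All 3 peaks over ribosomal RNA genes had high input levels, 42535, 19595 and 4520 reads per 1000 bases for Rn45s, mt-Rnr1 and mt-Rnr2. Their ratios followed the reverse order, 0.274, 1.135 and 5.06. Their IP levels spread less, at 13990, 26690 and 27420, so this reverse order rests mostly on the input by which the ratio divides. The intervals of the 3 ratios do not overlap. The direction of Rn45s was the same by every library total, since each of the other totals lowers all ratios.

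The 9 peaks were poor in G on the strand of the gene. Their G content ran from 9.5% in the mt-Atp6 copy to 18.5% in the mt-Co3 copy, with 14% for mt-Rnr1, 14.5% for mt-Rnr2, 18% for mt-Co2 and 10.5% for mt-Atp6. Over 313 other peaks of 200 to 240 bases with full annotation the median was 24.5% (quartiles 21% and 28%), and 12.5% of them were at or below 18.5%. The G and C content together ran from 33.5% in mt-Rnr1 to 46% in mt-Co2, against a median of 52.4% (quartiles 46.5% and 58.5%). Runs of GGG on the gene strand were found in 4 of the 9 and in 85.6% of the 313. Runs of CCC, the same letters on the other strand, were found in 8 of the 9 and in 93.0%. The exception was the mt-Co3 copy. The mt-Co2 copy, which has a GGG run, is 400 bases long, and 188 bases of the mt-Co1 copy were used. Both lengths lie outside the 200 to 240 bases of the 313. The mitochondrial and chromosome 1 peaks over mt-Co2 share 177 bases, as do those over mt-Atp6, so the 9 are not separate sequences. A low G content is a general property of the protein-coding strand of the mitochondrial genome, and these values describe the sequence only.

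Nuclear genes whose proteins work in mitochondria were counted from 3 lists. A gene was counted where a peak past an adjusted p of 0.05 lay over its exons on the opposite strand, and 1.82% of 21979 nuclear protein-coding genes did so. Of 77 nuclear genes of the respiratory chain, 4 (5.19%) had such a peak, with a median ratio of 5.65. They were Cox7a2l at 6.88 (6.39 to 7.41), which encodes a factor of respiratory supercomplexes, and the complex I subunits Ndufb10 at 3.58 (3.39 to 3.78), Ndufv3 at 4.44 (4.14 to 4.75) and Ndufs8 at 9.27 (8.30 to 10.4). Of the 79 genes for mitochondrial ribosomal proteins, which bind mt-Rnr1 and mt-Rnr2, 4 (5.06%) had one, with a median of 6.45. Those 4 were Mrpl42 at 8.74 (7.82 to 9.79), Mrpl20 at 2.65 (2.40 to 2.92), Mrpl51 at 7.37 (6.13 to 8.91) and Mrps6 at 5.58 (4.53 to 6.92). None of 48 annotated genes for factors of mitochondrial RNA and DNA had one. The chromosome strand opposite to the gene held at least 1 peak for 48, 60 and 38 genes of the 3 lists, so no peak could be counted for the others. Of the 21979 protein-coding genes, a peak could be counted for 16581. Those 21979 were not limited to genes expressed in brain, and the shares were not tested against each other. Both medians lay below the 14.6 of the 400 protein-coding genes with such a peak, and below the ratios of mt-Co2 and mt-Atp6. Where a library total divides every ratio alike, as here, these comparisons between genes do not change with it.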

How the data were processed

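Brains of 28 pups were pooled for 1 Mov10 IP and 1 input library. The authors demultiplexed with bcl2fastq 2.17.1.14, aligned with TopHat2 2.1.1 to unmasked mm10, keeping up to 2000 alignments per read, and called peaks per strand with RIPSeeker. The deposited peak attributes hold raw read counts of IP and input with the authors' p-value, adjusted p-value and eFDR, used as deposited. Read length is not given in the sources used here. The study's IP with an unrelated antibody was not analysed here. Tissue markers were not checked, because the table lists called peaks and not all genes.

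Ratios divide the counts by the aligned reads that the study states, 71522027 (IP) and 59620379 (input). Intervals are exact conditional binomial (ratios) or Poisson (counts) at 95%. Peak bases were rebuilt from GENCODE M21 transcripts of the same build and compared with the mitochondrial genes by BLAST+ 2.17.0 (95% identity over at least 100 bases). The place of Rn45s was read from the study's own list of mRNA peaks. Scripts used Python 3.11.15, scipy 1.17.1, numpy 2.4.6 and matplotlib 3.10.9. On simulated data, intervals covered the true ratio in at least 95.9% of 882 peaks, and 100 of 100 planted fragments and 0 of 100 random sequences were matched. The members are all peaks on the mitochondrial genome and those on chromosome 1 from 24611000 to 24617000. Members and gene lists were chosen with earlier results of these data known. Genes named are those under the 9 peaks and under matching peaks elsewhere, Rn45s, and from each list at most the 4 with the most IP reads. Having 1 library of each kind, the design allows neither a check between replicates nor a test of the groups. Library totals, one of them added after seeing the data, thresholds, pseudocounts, identities and backgrounds were varied.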

Additional observations from a re-analysis of the deposited data

How the results depend on the processing

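No paired analysis was possible because each group has 1 library. Another library total multiplies every ratio by 1 factor, 0.613 for uniquely aligned reads, 0.820 for all sequenced reads and 0.474 for reads within peaks. A total added after seeing the data, reads within peaks without the Rn7sk peak, gives 0.130. The median ratio of the 9 peaks, 11.6 by aligned reads, became 7.10, 9.49, 5.49 and 1.51. The ratio of mt-Rnr1 turned from 1.135 to 0.696, 0.931, 0.539 and 0.148, and that of mt-Rnr2 to 0.659 by the last total. The sum over places of mt-Rnr1 was also 0.696 by uniquely aligned reads. The median of the ratios summed by gene, 10.8, became 6.60 by uniquely aligned reads. Of the 9, 0 passed an eFDR of 0.05, which 23.4% of all peaks passed, instead of 5 by adjusted p. At 98% identity, 0 peaks elsewhere matched the mitochondrial genome instead of 2. The members' median over that of all peaks was 1.98, and 2.77 with a pseudocount of 1. Against assembled chromosomes it fell below 1, to 0.751, and to 0.748 without peaks that match mitochondrial DNA. The pseudocount of 1 left the other 11 values within counting error, and the count past an adjusted p of 0.01 stayed at 5. Unsearched bases limit the search for copies, and reads shared by identical places limit the values of each place.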

Other observations

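On the minus strand of chromosome 1, the 21 peaks had between 19895 and 32090 IP reads per 1000 bases, with a median of 22478, and the mt-Co1 copy was the highest of them. The nearest peaks outside the window that chose the copy lay 17687400 bases before it, over the gene model Gm37108, and 14754001 bases after it, over Rpl31, which encodes a protein of the large cytosolic ribosomal subunit. The Gm37108 peak held 5871 IP reads and 212 input reads, a ratio of 23.1 (20.1 to 26.6), above all 5 peaks of the copy. The Rpl31 peak held 4254 and 248 reads, a ratio of 14.3 (12.6 to 16.3), an interval that overlaps those of the mt-Co1, mt-Co2 and mt-Nd4l copies.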
